A study of Mus musculus with 12 samples.

Results

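The 39 genes described here belong to homologous recombination, the Fanconi anaemia pathway and the checkpoint around them, with 2 mismatch repair genes (Msh6 and Pms2) and an end-joining polymerase gene (Polq), and they were chosen by name. All 39 were among the 18847 genes tested, out of 48709 genes with a row in the count data. RNA was sequenced from cultures of primary hippocampal neurons of CD1 mice, taken at embryonic day 17. At day 10 in vitro (DIV10) the cultures received lipid nanoparticles loaded with a mimic of miR-148a-3p, which is a synthetic RNA that stands in for the mature microRNA, or with a negative control oligonucleotide. Both groups shared the strain, the age of the embryos, the nanoparticles and the ApoE4 added with them. The treatment lasted 48 h before harvest at DIV12 in both, and each group held 6 libraries. The microRNA itself is not measured by these polyA libraries, and the labels do not say whether the replicates came from separate cultures or litters, so the p-values measure the spread between these libraries, which may be technical.

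Homologous recombination repairs a broken chromosome by copying the intact sister. The ends of the break are trimmed to single strands, BRCA1 and BRCA2 prepare them for strand exchange with the sister, and the joined molecules are later cut apart by nucleases. The Fanconi pathway removes crosslinks between DNA strands: a core complex attaches ubiquitin to FANCD2 and FANCI, which then call in nucleases and recombination proteins. A sister chromatid exists only after replication, and many genes of these pathways are transcribed mainly in S and G2 phase of dividing cells, often through E2F factors and the DREAM complex. Neurons have left the cell cycle, while glia and progenitors in such cultures can still divide.

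On this textbook basis 19 of the 39 members were set down as induced in dividing cells and 20 as constitutive. Of the 39, 10 have an uncertain class, 2 among the induced (Xrcc2 and Msh6) and 8 among the constitutive (Palb2, Rad51c, Xrcc3, Fance, Fancg, Fancm, Rbbp8 and Chek2). Values are CPM, the counts scaled to a common library size after TMM normalization, so that libraries of unequal depth can be compared. A gene was called when its p-value from edgeR's quasi-likelihood test, adjusted over all 18847 tested genes by the Benjamini-Hochberg method, was under 0.05.

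Of the 39 members, 23 rose with the mimic and 0 fell, while 16 did not pass (26 rose and 0 fell at an unadjusted p under 0.05; DESeq2 called 24 higher and 0 lower). Among all tested genes 22.2% were called, 11.5% higher and 10.7% lower. At an unadjusted p under 0.05, 3037 of the 18847 tested genes rose and 3125 fell, and DESeq2 called 2343 higher and 2143 lower. The induced members made up most of the change: 17 of 19 rose, with a median log2 fold change of 0.52 over the class and values from -0.12 (Fanci) to 1.05 (Eme1). Of the 20 constitutive members 6 rose, with a median of 0.08 and values from -0.11 (Fancg) to 0.43 (Chek2). The median of all tested genes was -0.01. In 18 of the 39 members all 6 mimic libraries lay above all 6 control libraries, 14 of them induced and 4 constitutive (Atm, Rbbp8, Palb2 and Chek2), where 7.43% of all tested genes did so. Without the 10 members of uncertain class, 15 of 17 induced and 3 of 12 constitutive members rose. No test was made between the classes. In bulk cultures more cells of a type and more RNA per cell cannot be told apart, and this holds for every value below.

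**Figure D1:**
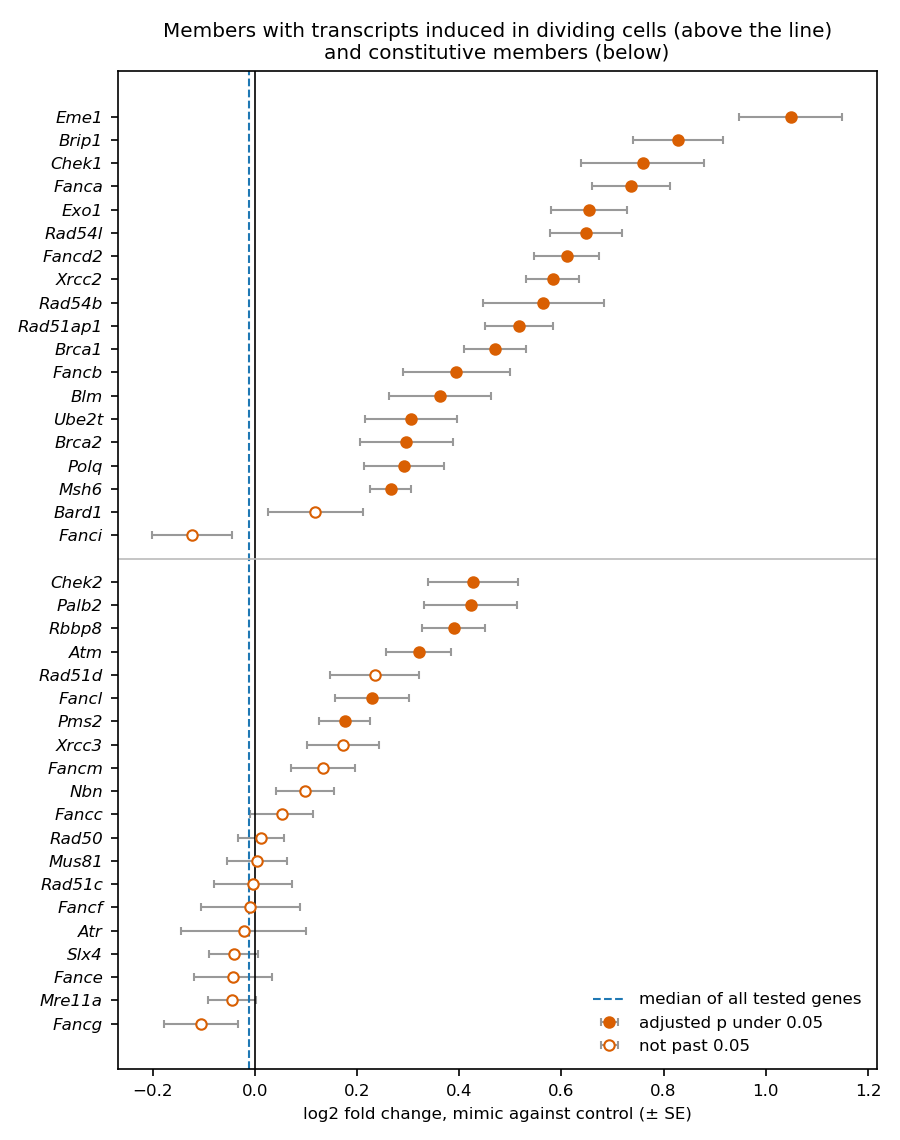
Log2 fold change of each member, mimic against control, with its standard error (n = 6 libraries per group); filled points passed an adjusted p of 0.05, and the dashed line is the median of all tested genes at -0.01. The induced members fill the right side except Bard1 and Fanci, and most constitutive members lie near 0.

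The libraries held between 20018234 and 37149112 counts, with means of 2.896e+07 in the controls and 3.079e+07 with the mimic. An exact permutation test did not separate these means (p = 0.515, two-sided, over all relabellings). Counts per library ran from 29 for Rad54b to 1904 for Slx4 over the members. Control replicate 1, the shallowest library, was the lowest control library for 10 of 19 induced and 10 of 20 constitutive members, and the highest for 0 induced and 6 constitutive members. Relative to the mean of the controls, the induced members averaged -0.21 on the log2 scale in this library and between -0.03 and 0.08 in the other 5 control libraries. They averaged 0.41 to 0.51 in the mimic libraries, and the constitutive members 0.10 to 0.14, against -0.06 to 0.03 in the controls. Without control replicate 1, 25 members rose, 17 induced and 8 constitutive, with class medians of 0.48 and 0.07. The induced class therefore separated the groups with or without this library.

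**Figure D2:**
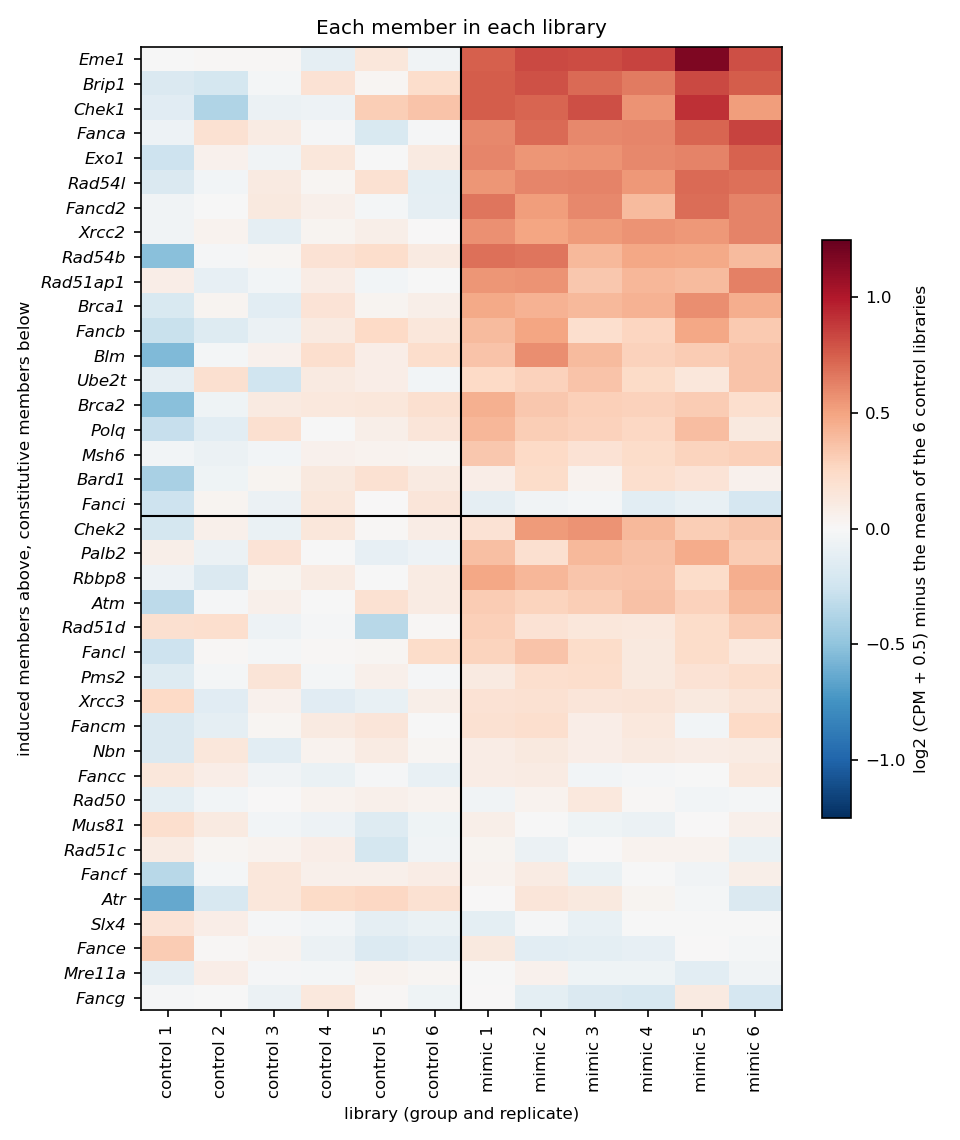
Log2 (CPM + 0.5) of each member in each library, minus its mean over the 6 control libraries, with induced members above the horizontal line and control libraries left of the vertical line. The mimic columns are evenly raised over the induced rows except Bard1 and Fanci, and control replicate 1 is pale to dark blue in many rows, most in Atr, Blm, Rad54b and Brca2.

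The 2 oligonucleotides are shown with the seed, bases 2 to 8, in capitals, since the seed decides which transcripts a microRNA can pair with. The study's reagent list gives them, and the control strand shown is assumed to be the one used. The mimic strand is the same as mature mmu-miR-148a-3p of RefSeq, which lies at chr6:51269829-51269850 on the minus strand (GRCm38.p6).
miR-148a-3p mimic: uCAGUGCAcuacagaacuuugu
negative control: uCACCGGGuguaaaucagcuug

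A site for the mimic was counted where a 3′ untranslated region (UTR) holds the complement of bases 2 to 8, or of bases 2 to 7 followed by A. Of the 39 members 5 hold such a site (12.8%), against 3307 of 15082 tested genes with a UTR (21.9%). They are Fanci, Bard1 and Brip1 among the induced members and Fancm and Rad51c among the constitutive. Fanci has an 8-base and a 7-base site within a UTR of 553 bases, and Rad51c has 4 sites, 3 of them inside a run of gt repeats. The sites of Fanci, Bard1, Brip1 and Fancm and the 1 site of Rad51c outside the repeat are shown with their flanks, 5′ to 3′ on the strand of the gene, with the bases that pair with the seed and the A opposite base 1 in capitals (GRCm38).
Fanci, chr7:79449759-79449788: gtcacacagccTGCACTGAtgttggtgtcc
Fanci, chr7:79449788-79449817: ctggttctgaacGCACTGAattgtgccttc
Bard1, chr1:71029841-71029870: tcatgattcgaaGCACTGAatgttagtggt
Brip1, chr11:86060942-86060971: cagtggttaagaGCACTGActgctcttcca
Fancm, chr12:65131581-65131610: ttcttaggcagTGCACTGAcattgtacaga
Rad51c, chr11:87378788-87378817: cacacatgtgcTGCACTGcaccagctttta

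The 16 induced members without a site all rose. Of the 3 induced members with a site, Brip1 rose, and Fanci and Bard1 are the 2 induced members that did not pass. Neither constitutive member with a site passed, at log2 fold changes of 0.13 for Fancm and -0.0028 for Rad51c, and 12 of the 18 constitutive members without a site did not pass either. Over the 15082 tested genes with a UTR the median log2 fold change was -0.0356 with a site and 0.0013 without. Whether the sites have a part in these values was not tested. The seed of the negative control has 1 site among the members, in Pms2.

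The BRCA complex prepares the broken ends for strand exchange, and 3 of its 4 members rose. Brca1, the ubiquitin ligase that directs ends toward recombination (chr11:101488764-101551955, minus strand), ran from 11.7 to 15.1 CPM in the controls with a median of 13.7, and from 17.8 to 20.2 CPM with a median of 18.3 in the mimic libraries. The groups did not overlap, and the log2 fold change was 0.47 ± 0.06 (SE, n = 6 per group; adjusted p = 1.79e-05). Bard1, its obligate partner in the ligase (chr1:71027498-71103146, minus strand), ran from 2.88 to 4.59 CPM (median 4.21) and from 4.11 to 4.75 CPM (median 4.39), at a log2 fold change of 0.12 ± 0.09 (adjusted p = 0.418). Its groups overlapped: only control replicate 1 lay far below the rest, and without it the log2 fold change was 0.05.

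Brca2, which works on the single-stranded DNA of trimmed ends (chr5:150522630-150570329, plus strand), ran from 7.42 to 12.6 CPM (median 11.9) and from 12.7 to 15.0 CPM (median 13.6). Its log2 fold change was 0.30 ± 0.09 (adjusted p = 0.0265). The groups lay just apart, and the call was lost without control replicate 2 (adjusted p = 0.0549) or mimic replicate 1 (adjusted p = 0.0665). Palb2, the bridge between BRCA1 and BRCA2 and a constitutive member by its class, ran from 1.90 to 2.40 CPM (median 2.02) and from 2.46 to 3.07 CPM (median 2.83). It rose by 0.42 ± 0.09 (adjusted p = 0.00239), with no overlap, at the lowest level per kb of exon of all members (0.284 CPM per kb in the controls).

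Among the 7 genes of strand exchange all 4 induced members rose without overlap, and none of the 3 constitutive ones passed. Rad54l, a motor protein that helps invasion of the sister strand (chr4:116094264-116123690, minus strand), ran from 5.05 to 6.70 CPM in the controls (median 5.76) and from 8.66 to 9.78 CPM in the mimic libraries (median 9.15), a log2 fold change of 0.65 ± 0.07 (adjusted p = 2.87e-06). Rad54b, a related motor, ran from 1.46 to 2.78 CPM (median 2.46) and from 3.20 to 4.04 CPM (median 3.42), at 0.56 ± 0.12 (adjusted p = 0.00200). Control replicate 1 was its lowest library by a wide margin, and without that library the log2 fold change was 0.48. Exons of Rad54b share 35.8% of their bases with Fsbp on the same strand, and those of Rad54l share 15.4% with Lrrc41 on the opposite strand.

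Rad51ap1, which stimulates strand pairing (chr6:126923050-126939587, minus strand), ran from 5.82 to 6.75 CPM (median 6.20) and from 8.06 to 10.02 CPM (median 9.00), at 0.52 ± 0.07 (adjusted p = 2.15e-05). Xrcc2, which stabilises the protein filament on single-stranded DNA, ran from 6.90 to 7.89 CPM (median 7.58) and from 10.8 to 11.8 CPM (median 11.2), at 0.58 ± 0.05 (adjusted p = 3.27e-07). Both genes stood clear of the controls in all 6 mimic libraries. The constitutive genes of this group were Rad51c (log2 fold change -0.0028, adjusted p = 0.998), Rad51d (0.23, adjusted p = 0.0653) and Xrcc3, the last with 5.99 to 8.03 CPM in the controls (median 6.57) and 7.28 to 7.66 CPM with the mimic (median 7.51; 0.17 ± 0.07, adjusted p = 0.0952). Rad51d passed without control replicate 1 (adjusted p = 0.0181), without control replicate 2 (adjusted p = 0.0313) and by DESeq2, and Xrcc3 passed without control replicate 1 (adjusted p = 0.0130).

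The Fanconi core complex is a ubiquitin ligase whose catalytic subunit is FANCL and whose ubiquitin-conjugating enzyme is UBE2T. Of its 9 genes here, the 3 induced ones and Fancl rose. Fanca, a subunit that anchors the complex with FANCG (chr8:123268300-123318576, minus strand), ran from 3.98 to 5.31 CPM in the controls (median 4.55) and from 7.25 to 8.68 CPM with the mimic (median 7.55), a log2 fold change of 0.74 ± 0.08 (adjusted p = 1.71e-06). Fancb, part of the catalytic module and encoded on the X chromosome, ran from 2.07 to 3.21 CPM (median 2.67) and from 3.10 to 3.88 CPM (median 3.51), at 0.39 ± 0.11 (adjusted p = 0.0113). Ube2t ran from 2.75 to 3.95 CPM (median 3.45) and from 3.78 to 4.46 CPM (median 4.17), at 0.31 ± 0.09 (adjusted p = 0.0197). In Fanca the groups were far apart, while in Fancb and Ube2t the lowest mimic library lay below the highest control library, and the call of Ube2t was lost without control replicate 3 (adjusted p = 0.0510). Exons of Fanca share 10.5% of their bases with Zfp276 on the opposite strand, which did not pass.

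Fancl (chr11:26386135-26471876, plus strand) ran from 6.87 to 9.80 CPM (median 8.40) and from 9.10 to 10.8 CPM (median 9.85), with overlapping groups and a log2 fold change of 0.23 ± 0.07 (adjusted p = 0.0301). This call was not stable: leaving out control replicate 3 or 4, or mimic replicate 1, 2, 3 or 5, took the adjusted p to values between 0.0502 and 0.0727. Fancm, the translocase that finds stalled forks, had the highest CPM of the constitutive core genes, from 18.5 to 23.3 (median 21.1) in the controls and from 20.4 to 25.0 (median 23.5) with the mimic, and did not pass (0.13 ± 0.06, adjusted p = 0.146). The scaffold subunits Fancc, Fance, Fancf and Fancg had log2 fold changes between -0.11 and 0.05 and adjusted p-values from 0.344 to 0.967. In each of these 5 genes the groups overlapped.

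Downstream of the core complex the 3 effectors parted. Fancd2, which is ubiquitinated and clamps onto DNA (chr6:113531682-113597017, plus strand), ran from 7.05 to 8.35 CPM in the controls (median 7.59) and from 10.2 to 12.7 CPM with the mimic (median 11.9), at 0.61 ± 0.06 (adjusted p = 2.20e-06). Brip1, the helicase that binds BRCA1 (chr11:86058138-86201193, minus strand), ran from 2.25 to 3.22 CPM (median 2.70) and from 4.50 to 5.16 CPM (median 4.91), at 0.83 ± 0.09 (adjusted p = 2.62e-06). In both genes every mimic library lay above every control library. Fanci, the partner that forms a clamp with FANCD2 (chr7:79391929-79450264, plus strand), ran from 4.14 to 5.69 CPM (median 5.13) and from 4.32 to 4.97 CPM (median 4.68). Its groups overlapped and it did not pass (-0.12 ± 0.08, adjusted p = 0.301); without control replicate 1 the log2 fold change was -0.17 (adjusted p = 0.101). Exons of Fanci share 921 of 5774 bases (16.0%) with Polg on the opposite strand. Polg is a mitochondrial polymerase gene with 2034 counts per library that rose by 0.23 (adjusted p = 0.00284). The library kit does not mark strand and the counting options are not given. Whether reads of the shared bases were counted for Fanci, and from which gene, or were dropped is therefore not known.

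Of the 6 genes of break sensing and resection, 3 rose: both induced members and the constitutive Rbbp8. The MRN complex, which detects the broken end, consists of the products of Mre11a, Rad50 and Nbn, and none of these passed, with log2 fold changes of -0.04, 0.01 and 0.10 and adjusted p-values of 0.570, 0.893 and 0.254. Rad50, the most abundant of them by CPM, ran from 19.0 to 21.7 CPM (median 21.02) in the controls and from 20.1 to 22.6 CPM (median 20.6) with the mimic. The 2 groups covered almost the same range.

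The 3 genes that act after MRN rose. Rbbp8, which encodes the resection factor CtIP and is constitutive by its uncertain class, ran from 8.92 to 11.0 CPM (median 10.3) and from 12.0 to 14.4 CPM (median 13.4), at 0.39 ± 0.06 (adjusted p = 0.000156). Exo1, a long-range resection nuclease (chr1:175880581-175913489, plus strand), ran from 3.38 to 4.64 CPM (median 4.23) and from 6.30 to 7.24 CPM (median 6.56), at 0.65 ± 0.07 (adjusted p = 4.73e-06). Blm, the helicase that works in resection and in dissolving joined molecules (chr7:80454733-80535119, minus strand), ran from 7.37 to 12.9 CPM (median 11.7) and from 13.6 to 16.7 CPM (median 14.3), at 0.36 ± 0.10 (adjusted p = 0.0136). The groups did not overlap in any of these 3 genes, and Blm was at 0.28 without control replicate 1, its lowest library.

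Of the checkpoint kinases, which halt the cycle when DNA is damaged, 3 of 4 rose. Chek1, the kinase that ATR switches on (chr9:36708482-36727065, minus strand), ran from 2.68 to 4.76 CPM in the controls (median 3.43) and from 5.41 to 7.28 CPM with the mimic (median 6.38), at 0.76 ± 0.12 (adjusted p = 0.000158). Chek2, the kinase that ATM switches on, ran from 3.23 to 4.30 CPM (median 3.96) and from 4.43 to 5.92 CPM (median 5.14), at 0.43 ± 0.09 (adjusted p = 0.00168). Neither gene's groups overlapped. Atm, the kinase that answers double-strand breaks (chr9:53439149-53536740, minus strand), ran from 22.8 to 33.0 CPM (median 29.3) and from 35.0 to 38.4 CPM (median 36.0), at 0.32 ± 0.06 (adjusted p = 0.00134), again with no overlap. Atr, the kinase of stalled forks (chr9:95857597-95951781, plus strand), ran from 18.2 to 34.3 CPM (median 32.1) and from 25.2 to 31.7 CPM (median 29.1), at -0.02 ± 0.12 (adjusted p = 0.933). Control replicates 1 and 2 were its lowest control libraries, at 18.2 and 24.9 CPM, while the other 4 ran from 31.6 to 34.3 CPM. Without control replicate 1 the log2 fold change was -0.12 (adjusted p = 0.290).

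**Figure D3:**
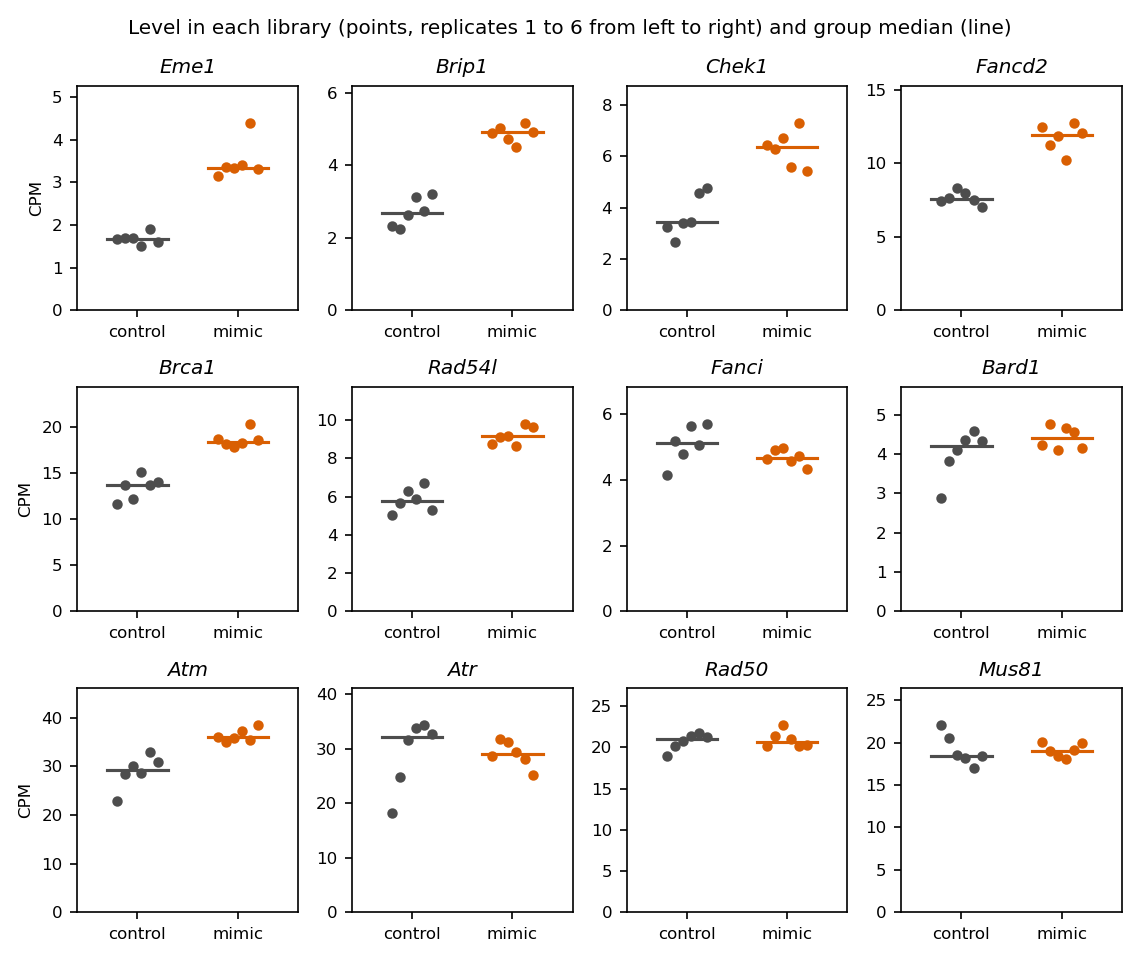
CPM of 12 members in each control library (grey) and each mimic library (orange), with a line at the median of the group and each vertical axis starting at 0. In Eme1, Brip1, Chek1, Fancd2, Brca1, Rad54l and Atm the groups are apart, while in Fanci, Bard1, Atr, Rad50 and Mus81 they overlap.

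The junction nucleases gave both the largest log2 fold change of the 39 members and 2 genes near 0. Eme1, the regulatory subunit of the MUS81 nuclease (chr11:94644996-94653964, minus strand), ran from 1.52 to 1.90 CPM in the controls (median 1.68) and from 3.14 to 4.38 CPM with the mimic (median 3.35), a log2 fold change of 1.05 ± 0.10 (adjusted p = 7.37e-07). The groups were far apart in all libraries, on 33 to 130 counts per library. Its exons share 221 bases (8.0%) with Lrrc59 on the opposite strand, which had 4531 counts and a log2 fold change of -0.01. Mus81, the catalytic subunit, was at 0.00 ± 0.06 (adjusted p = 0.972). Slx4, the scaffold that holds the nucleases, had the highest level of all members, from 47.9 to 58.6 CPM (median 50.9) and from 47.8 to 51.9 CPM (median 51.5), and did not pass (-0.04 ± 0.05, adjusted p = 0.608).

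Both mismatch repair members rose, by small amounts. Msh6, which recognises base mismatches, ran from 27.9 to 30.6 CPM (median 29.5) and from 33.5 to 37.3 CPM (median 35.5), at 0.27 ± 0.04 (adjusted p = 8.67e-05). Pms2, which nicks the strand to be repaired, ran from 20.1 to 25.2 CPM (median 22.2) and from 24.4 to 26.4 CPM (median 25.9), at 0.18 ± 0.05 (adjusted p = 0.0165). The groups were apart for Msh6 and overlapped for Pms2. Polq, the polymerase of a microhomology end-joining route that competes with recombination (chr16:37011786-37095417, plus strand), ran from 8.74 to 12.5 CPM (median 11.1) and from 11.8 to 14.6 CPM (median 13.4), at 0.29 ± 0.08 (adjusted p = 0.0118), with overlapping groups.

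Several of these proteins work as pairs, and the ratio of the 2 transcripts within a library does not depend on the library's scaling. The pairs were set after the values were known, and no test was made on the ratios. Per kb of exon, Fancd2 stood at 0.901 to 1.30 times Fanci in the controls (median 1.08) and at 1.63 to 2.03 times with the mimic (median 1.84). Eme1 stood at 0.0977 to 0.145 times Mus81 (median 0.111) and at 0.203 to 0.296 times (median 0.232), and Fanca at 0.257 to 0.349 times Fancg (median 0.302) and 0.474 to 0.669 times (median 0.550). These 3 ratios did not overlap between the groups.

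In the other 7 pairs the ratios overlapped. Brca1 stood at 1.97 to 2.69 times Bard1 (median 2.22) in the controls and 2.54 to 2.96 times (median 2.90) with the mimic. Brca2 against Palb2 had medians of 3.00 and 2.54, Xrcc2 against Rad51d 0.825 and 1.05, and Xrcc3 against Rad51c 2.98 and 3.18. Fancb against Fancl had medians of 0.340 and 0.405, Fancc against Fance 0.193 and 0.204, and Mre11a against Rad50 0.675 and 0.660. Pairs of an induced member that rose and a partner that did not pass are thus found on both sides, with Fancd2, Eme1 and Fanca apart and Brca1 and Xrcc2 overlapping.

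Per kb of exon the induced members had the lower median level. Their control levels had a median of 0.810 CPM per kb of exon, with a range from 0.365 (Brip1) to 6.77 (Msh6), against a median of 2.23 and a range from 0.284 (Palb2) to 6.80 (Slx4) in the constitutive members. The median of all tested genes was 3.19 CPM per kb. The standard errors of the log2 fold changes lay between 0.04 (Msh6) and 0.12 (Chek1) in the induced members and between 0.05 (Rad50) and 0.12 (Atr) in the constitutive members.

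Promoters are shown because the 2 classes are defined by how their genes are transcribed. RefSeq's table for GRCm38.p6 held the window from 250 bases before to 50 bases after the start for 31 of the 39 members, 15 induced and 16 constitutive. The start is that of a RefSeq transcript, which in some members, such as Fancl, Fancc and Slx4, lies inside the gene span of GENCODE. Exo1, Fancd2, Nbn, Rad50, Rad51d, Rad54b, Rbbp8 and Xrcc2 had no entry. Both strands were searched for the E2F motifs TTTGGCGC, TTTCGCGC and GGCGGGAA, the CHR motif TTTGAA, through which the DREAM complex is known to act, and the NF-Y motif CCAAT. No motif of one kind contains one of another kind.

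An E2F motif was found in 5 of 15 induced members (33.3%: Chek1, Fancb, Msh6, Polq and Rad51ap1) and 2 of 16 constitutive members (12.5%: Fancm and Rad51c), against 5.81% of the tested genes with an entry and 3.39% of all genes in the table. A CHR motif was found in 3 of 15 induced members (20%: Bard1, Eme1 and Polq) and 0 of 16 constitutive members, where 14.5% of the tested genes held it. A CCAAT motif was found in 9 of 15 (60.0%) and 11 of 16 (68.8%), where 42.3% of the tested genes held it. These shares describe letters in a window and were not tested, and 10 of the 15 induced members held none of the 3 E2F strings. Other forms of the E2F motif were not searched, so the shares of both classes hold for these strings only. TTTCCCGC, for example, or its reverse complement is in the windows of Bard1, Brca2, Chek2 and Fancg, which count here as without an E2F motif.

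Shown are 3 induced members that rose, of which Rad51ap1 and Polq hold an E2F motif and Brip1 holds 3 inverted CCAAT motifs, and 2 that did not pass, the induced Fanci and the constitutive Atr, whose windows hold none of the motifs. Each is read 5′ to 3′ on the strand of the gene, with the motifs in capitals.
Rad51ap1, chr6:126939538-126939837, minus strand: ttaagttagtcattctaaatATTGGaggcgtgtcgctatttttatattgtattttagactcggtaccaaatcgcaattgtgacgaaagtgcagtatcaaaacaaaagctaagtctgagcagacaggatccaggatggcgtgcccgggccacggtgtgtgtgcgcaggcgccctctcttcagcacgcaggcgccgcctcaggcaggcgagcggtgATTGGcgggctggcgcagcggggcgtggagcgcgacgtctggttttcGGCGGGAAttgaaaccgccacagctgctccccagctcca
Polq, chr16:37011536-37011835, plus strand: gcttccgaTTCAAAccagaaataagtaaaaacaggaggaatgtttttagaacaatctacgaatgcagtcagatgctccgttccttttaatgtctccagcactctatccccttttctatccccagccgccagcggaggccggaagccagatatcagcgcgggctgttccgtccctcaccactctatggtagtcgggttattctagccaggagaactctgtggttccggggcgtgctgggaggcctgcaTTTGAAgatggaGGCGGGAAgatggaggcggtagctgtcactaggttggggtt
Brip1, chr11:86201144-86201443, minus strand: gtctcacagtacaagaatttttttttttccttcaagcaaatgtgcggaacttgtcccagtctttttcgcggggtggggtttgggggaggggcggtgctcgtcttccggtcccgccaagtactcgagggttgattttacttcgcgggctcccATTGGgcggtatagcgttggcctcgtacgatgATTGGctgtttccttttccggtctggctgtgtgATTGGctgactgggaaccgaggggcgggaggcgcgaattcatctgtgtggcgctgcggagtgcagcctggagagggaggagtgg
Fanci, chr7:79392088-79392387, plus strand: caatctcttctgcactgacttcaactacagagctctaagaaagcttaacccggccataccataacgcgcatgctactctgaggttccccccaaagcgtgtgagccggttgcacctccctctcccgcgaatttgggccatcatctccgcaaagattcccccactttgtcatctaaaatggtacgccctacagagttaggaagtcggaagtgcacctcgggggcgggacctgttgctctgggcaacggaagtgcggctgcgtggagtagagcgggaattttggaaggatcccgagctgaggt
Atr, chr9:95857347-95857646, plus strand: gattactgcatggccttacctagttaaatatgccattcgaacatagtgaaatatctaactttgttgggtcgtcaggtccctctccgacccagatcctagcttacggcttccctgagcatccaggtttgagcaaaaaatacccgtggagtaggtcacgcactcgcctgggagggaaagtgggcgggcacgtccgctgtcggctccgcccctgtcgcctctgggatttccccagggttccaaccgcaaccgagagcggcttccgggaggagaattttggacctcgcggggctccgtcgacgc

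In Rad51ap1 the E2F motif begins 11 bases after the start of the gene and the nearer CCAAT motif lies 36 bases before it. In Polq the E2F motif begins 9 bases after the start, and CHR motifs lie 3 and 242 bases before it. The 3 CCAAT motifs of Brip1 lie 99, 67 and 34 bases before the start. Among members not shown, Fancm and Rad51c hold an E2F motif, Bard1 a CHR motif and Fancf 3 CCAAT motifs, and none of these passed. Of the 31 members with an entry, 6 hold none of these strings: Brca2 and Fancl, which rose, and Fanci, Atr, Fancg and Mus81, which did not pass. This says only that these letters are not in these RefSeq windows.

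The members were set beside other gene lists written from textbook knowledge. Of 55 other tested recombination and Fanconi genes, 15 rose and 3 fell, with a median log2 fold change of 0.06. Those that rose most among genes with at least 100 counts were H2afx, the histone that is phosphorylated around breaks (0.99 ± 0.05, adjusted p = 5.54e-10), Mms22l, which acts at stalled forks (0.72 ± 0.09, adjusted p = 1.55e-05), and Clspn, the adaptor through which ATR activates CHK1 (0.61 ± 0.05, adjusted p = 2.71e-07). Those that fell were Babam1 (-0.28), Faap100 (-0.25) and Ercc4 (-0.13, adjusted p = 0.0491).

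Lists of repair routes that do not need a sister chromatid were counted against the same 22.2% of all tested genes. Of 18 end joining genes 1 rose (Polm, 0.41 ± 0.08, adjusted p = 0.00141) and 1 fell (Trp53bp1, -0.12, adjusted p = 0.0148), with a median of 0.0014. Of 30 excision and other mismatch repair genes 4 rose and 2 fell, a share near that of all tested genes, with a median of -0.0035. The largest values there were those of Ung, which removes uracil from DNA (0.60 ± 0.08, adjusted p = 1.685e-05), Xpc, which senses bulky lesions (-0.25 ± 0.04, adjusted p = 0.000500), and Smug1, another uracil glycosylase (-0.21 ± 0.06, adjusted p = 0.0127).

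Genes of the cell cycle moved with the induced members. Of 38 DNA replication genes 31 rose and 0 fell, with a median of 0.48, and of 30 mitosis genes all 30 rose, with a median of 1.01. Mcm3, a subunit of the replicative helicase, was at 1.04 ± 0.06 (adjusted p = 2.84e-09), and Ccnb1, the mitotic cyclin, at 1.34 ± 0.10 (adjusted p = 2.22e-08). The summed level of the mitosis genes ran from 451 to 552 CPM in the controls and from 955 to 1024 CPM with the mimic, and that of the replication genes from 521 to 553 CPM and from 727 to 789 CPM. The induced members had a median close to that of the replication genes and below that of the mitosis genes. Of 20 p53 target genes 11 rose and 2 fell (median 0.17), among them Cdkn1a, the inhibitor that arrests the cycle (0.55 ± 0.04, adjusted p = 1.35e-08).

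**Figure D4:**
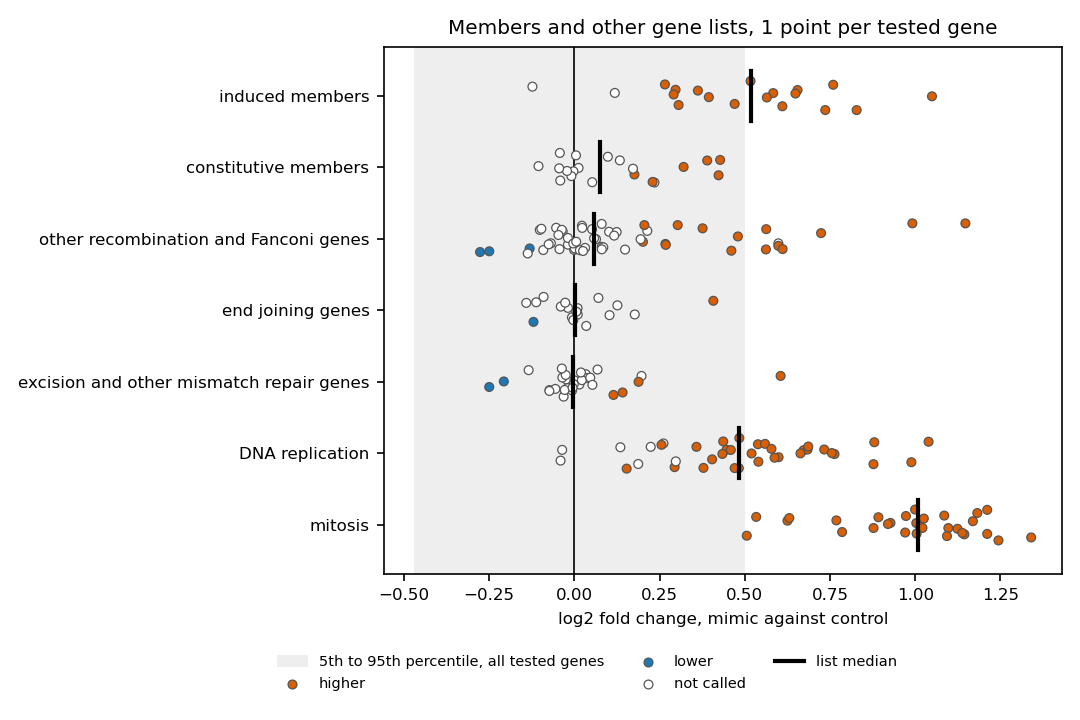
Log2 fold change of each tested gene, mimic against control, for the 2 classes of members and 5 other lists, with orange for genes called higher, blue for genes called lower, white for genes that did not pass, a bar at the median of the list, and grey from the 5th to the 95th percentile of all tested genes (-0.47 to 0.50). The induced members (median 0.52) lie beside the replication genes (0.48), while the constitutive members (0.08) lie beside the other repair lists.

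Markers of the cells that such cultures hold were measured in the same libraries. The neuron markers were abundant in both groups, with a summed level of 7932 to 8663 CPM in the controls and 8432 to 8789 CPM with the mimic, and 2 of 12 rose and 2 fell, among them Tubb3 (-0.32). Of 10 markers of the oligodendrocyte lineage 6 rose and 1 fell (median 0.57), among them Olig1 (0.96), Olig2 (0.71) and Cspg4 (0.69), and their summed level ran from 429 to 725 CPM and from 811 to 1004 CPM. Of 10 astrocyte markers 7 rose and 1, Gfap (-0.90), fell, and their sum ran from 5176 to 5694 CPM and from 6278 to 6710 CPM. Single genes carried much of these sums, and they were left out in turn after their values were seen. Slc1a3 ran from 835 to 966 CPM in the controls and from 1777 to 1848 CPM with the mimic. Without it the sum of the other 9 astrocyte markers overlapped (4318 to 4762 and 4472 to 4862 CPM). That sum joins the fall of Gfap, from a mean of 1362 to 731 CPM, with markers that rose. Among these were Slc1a2 (1693 to 2000 CPM) and Glul (315 to 528 CPM). Without Olig1 (306 to 594 and 652 to 834 CPM) the other 9 oligodendrocyte lineage markers summed to 110 to 135 CPM and 151 to 176 CPM, still with no overlap. The part of these cells in the members' values was not tested.

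Of 10 neural progenitor markers 4 rose and 2 fell, and their sum overlapped between the groups (2556 to 2783 and 2521 to 2645 CPM). The microglia markers (1 of 10 lower, sum 22.8 to 26.8 and 21.8 to 38.0 CPM) and the endothelial markers (2 of 6 tested lower, sum 47.4 to 69.6 and 29.0 to 51.8 CPM) were low in both groups. The endothelial sum was mostly Kdr, which fell from a mean of 58.6 to 37.6 CPM. Of 10 mesenchymal markers 1 rose and 3 fell (sum 234 to 305 and 140 to 282 CPM). Acta2 fell from a mean of 27.0 to 3.75 CPM (-2.86 on the log2 scale, the lowest value of all tested genes), with overlapping groups, Tagln stood at -1.74, and Fbln1 rose by 1.11. No marker in these lists was at 0 in every library.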

How the data were processed

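RNA-seq libraries of 6 control and 6 mimic samples were analysed (polyA RNA, TruSeq RNA v2, single-end 50-base reads). Per the labels, the authors used FastQC 0.11.5, STAR 2.5.2b on mm10 and featureCounts of Subread 1.5.1, and deposited raw counts per Ensembl gene. The authors also deposited a normalized signal table of 18289 genes, used in 1 alternative only. The kit does not mark strand, and the counting options are not given in the sources used here.

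Genes were kept where 6 or more of the 12 libraries had 5 counts or more, and were tested with edgeR 4.0.16 (R 4.3.3; TMM scaling, robust quasi-likelihood fit of the group), with p-values adjusted over all 18847 genes. Alternatives were DESeq2 1.42.0, RLE scaling, no count filter, a minimum of 20 counts, a replicate block, a test against a 1.2-fold change, limma 3.58.1 on log2 (signal + 1) of the normalized table, leaving out each library, and leaving out members of uncertain class. The fit was tested on simulated data. Names and UTRs came from GENCODE M21 (GRCm38), and promoters and miRNAs from RefSeq. Sites and motifs were searched in the longest UTR of each gene and in RefSeq windows.

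The members, their classes and all lists (other recombination and Fanconi genes, end joining, excision and mismatch repair, replication, mitosis, p53 targets and cell type markers) were chosen with earlier results of these data known. All members are named. From each other list up to 3 genes with at least 100 counts and the largest change are named, along with up to 3 called against the list's direction; Cdkn1a and a few further genes were named after their values were seen. Some genes are not reported here by name.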

Additional observations from a re-analysis of the deposited data

Results flagged for a closer look

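In a group of 6 libraries, a highest or lowest value was noted when its gap to the nearest other library, divided by the range of the group, was above Dixon's 95% critical value for 6 samples. Of 78 groups examined (39 members in 2 groups), 6 passed, where 1 in 20 would be 3.9. Of these, 2 concern control replicate 1: Blm at 7.373 CPM, with the next library at 10.88, and Rad54b at 1.464 CPM, with the next at 2.294. The other 4 are mimic libraries that lay above the rest of their group. Blm stood at 16.74 CPM in mimic replicate 2 (next 14.7), Brca1 at 20.23 CPM in mimic replicate 5 (next 18.67), Eme1 at 4.383 CPM in mimic replicate 5 (next 3.41) and Exo1 at 7.241 CPM in mimic replicate 6 (next 6.642). All 5 calls held when the library in question was left out.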

How the results depend on the processing

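Of 741 values (39 members under 19 alternatives), 684 kept their direction and their side of the threshold, 23 were no longer past it, 4 came to pass it and 30 changed sign, all 30 in members that did not pass. DESeq2, RLE scaling, the other count filters and limma on the normalized table each called 23 or 24 members higher and 0 lower. Against a minimum fold of 1.2 the test asks for more by construction: 683 genes were higher and 352 lower, and 11 members were higher, all 11 induced and 0 constitutive. Leaving out members of uncertain class left 3 constitutive members higher, with a median of 0.032. The replicate numbers did not pair the libraries (correlations of same-numbered deviations from -0.038 to 0.093), and a replicate block called 21 members higher, 16 induced and 5 constitutive, losing Brca2 (adjusted p = 0.0556) and Fancl (adjusted p = 0.0621). Signs changed for Rad51c by DESeq2 (0.0011), Fancf by limma (0.023) and Atr by limma (0.022) and under the block (0.0040). With 1 library left out the log2 fold change ran from -0.051 to 0.017 for Rad51c, -0.079 to 0.022 for Fance, -0.069 to 0.027 for Fancf, -0.0100 to 0.025 for Rad50, -0.12 to 0.028 for Atr and -0.028 to 0.046 for Mus81. Over the fits with 1 library left out, 21 to 25 members were higher. The causes were not tested.

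The members with the lowest mean counts were Palb2 (44 to 98 counts per library), Fancf (37 to 105), Eme1 (33 to 130) and Rad54b (29 to 123). Of these Palb2, Eme1 and Rad54b were called higher and Fancf did not pass. The part of depth in their values was not tested.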

Other observations

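Of the 15 other recombination and Fanconi genes that rose, 5 more are given here by their values. Dna2, a nuclease of resection and fork processing, was at 0.60 ± 0.07 (adjusted p = 1.02e-05), Usp1, which removes ubiquitin from FANCD2, at 0.48 (adjusted p = 0.000146), and Topbp1, an activator of ATR, at 0.27 (adjusted p = 1.28e-05). Gen1, a resolvase that acts beside MUS81 and EME1, was at 0.56 (adjusted p = 0.00104), and Rmi2, a partner of BLM, at 1.15 (adjusted p = 5.89e-05) on a mean of 35.2 counts. These genes were named after their values were seen.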
